A study of Homo sapiens with 4 samples.

Results

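The response to CoCl2 was measured in Sp1-silenced cells by comparing 1 array of cells transfected with Sp1 siRNA and exposed to CoCl2 (Sp1-si → CoCl2) with 1 array of Sp1 siRNA cells that were not exposed (Sp1-si). These are 2 of the 4 arrays of the study, and 14457 of the 17721 genes named on the array were well above background on both of them, as the scanner software calls a spot whose signal clearly exceeds its local background. The 2-fold limit played no part in choosing these genes, and lowered genes are described as fully as raised ones. The cells were OVSAYO, an established line of human ovarian clear cell carcinoma (CCC), and both cultures carried the same siRNA against Sp1, delivered with Lipofectamine. The labels name it as a Dharmacon pool, whereas the supplementary methods of the study list Sp1 siRNA from Santa Cruz Biotechnology. After 40 h of culture, as the labels have it, the medium was replaced, and the exposed cells received 0.5 mM CoCl2 for 4 h. A figure legend of the study gives a shorter culture before CoCl2. The other 2 arrays held OVSAYO cells with an Ambion negative control siRNA, without CoCl2 (NS-si) and with the same dose and time of CoCl2 (NS-si → CoCl2). The study asked which genes are activated under hypoxia-like conditions through Sp1, and this pair of arrays shows which genes CoCl2 moved when most Sp1 transcript had been removed. The SP1 probe with 10 spots had a scaled signal of 35.6 in Sp1-si and 30.1 in Sp1-si → CoCl2 cells, against 484 in NS-si and 439 in NS-si → CoCl2 cells, so the transcript was low with and without CoCl2.

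CoCl2 imitates hypoxia because cobalt interferes with the iron-dependent hydroxylases that mark hypoxia-inducible factors (HIFs) for destruction. Stabilised HIFs pair with ARNT and bind hypoxia response elements (HREs) of genes for glycolysis, vessel growth and oxygen sensing. As a heavy metal, cobalt also reaches other stress pathways, among them MTF1 with the metallothioneins, NRF2 with glutathione and thioredoxin enzymes, and heat shock factors with chaperones. Sp1 is a zinc finger factor that binds GC boxes in the promoters of a great many housekeeping and inducible genes.

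With 1 array per condition there was no replicate, so no test was run and each ratio describes a pair of arrays. Fewer cells, less RNA per cell and a change in transcription cannot be told apart in such bulk RNA. Signals are given scaled, with the 75th percentile of each array set to 1000, and a gene is called raised or lowered when its signal differed at least 2-fold, a log2 ratio of at least 1 or at most -1. The SD of a log2 ratio between the spots of probes printed 10 times ran from 0.157 for the dimmest to 0.064 for the brightest of 5 groups of such probes. That spread is far below the limit of 1, but it does not cover differences between cultures.

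The promoters of 6 raised genes are shown here, a pair each for the metal, heat shock and hypoxia responses described below. Each run holds the 250 bases before an annotated start of transcription, from RefSeq on GRCh38.p14, in the direction of transcription. Capitals mark letters of the metal response element (MRE, TGCACNC or TGCGCNC), the heat shock element (GAANNTTC) or the HRE core (ACGTG or GCGTG), matched on either strand. MT2A (chr16:56608334-56608583, plus strand) held 7 MRE matches and MT1X (chr16:56682220-56682469, plus strand) 4. HSPA6 (chr1:161524290-161524539, plus strand) and DNAJB1 (chr19:14518398-14518647, minus strand) held 2 heat shock elements each. For DNAJB1, which has 3 windows in the table, the one with most matches is shown. ANKRD37 (chr4:185396591-185396840, plus strand) held 3 HRE core matches, of which a pair overlap in a palindrome, and PFKFB4 (chr3:48556804-48557053, minus strand) 1.
MT2A: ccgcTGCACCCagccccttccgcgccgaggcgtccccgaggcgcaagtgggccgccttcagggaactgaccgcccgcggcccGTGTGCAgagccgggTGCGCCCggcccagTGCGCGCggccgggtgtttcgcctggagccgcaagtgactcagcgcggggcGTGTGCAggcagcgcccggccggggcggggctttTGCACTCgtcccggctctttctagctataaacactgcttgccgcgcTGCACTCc
MT1X: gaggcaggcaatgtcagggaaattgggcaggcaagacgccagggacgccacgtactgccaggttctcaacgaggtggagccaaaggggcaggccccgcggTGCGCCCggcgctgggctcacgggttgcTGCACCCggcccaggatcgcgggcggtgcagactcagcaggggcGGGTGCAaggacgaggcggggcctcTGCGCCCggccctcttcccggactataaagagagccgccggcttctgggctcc
HSPA6: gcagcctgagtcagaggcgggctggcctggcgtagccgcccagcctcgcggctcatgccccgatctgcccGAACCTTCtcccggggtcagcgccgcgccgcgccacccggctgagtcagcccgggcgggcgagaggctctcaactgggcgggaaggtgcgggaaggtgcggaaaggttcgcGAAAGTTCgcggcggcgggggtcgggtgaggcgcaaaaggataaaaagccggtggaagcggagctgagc
DNAJB1: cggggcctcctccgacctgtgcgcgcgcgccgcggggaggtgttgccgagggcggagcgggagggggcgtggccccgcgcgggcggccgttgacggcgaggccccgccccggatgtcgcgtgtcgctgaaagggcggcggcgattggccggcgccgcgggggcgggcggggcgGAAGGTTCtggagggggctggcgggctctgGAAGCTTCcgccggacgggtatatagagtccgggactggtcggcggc
ANKRD37: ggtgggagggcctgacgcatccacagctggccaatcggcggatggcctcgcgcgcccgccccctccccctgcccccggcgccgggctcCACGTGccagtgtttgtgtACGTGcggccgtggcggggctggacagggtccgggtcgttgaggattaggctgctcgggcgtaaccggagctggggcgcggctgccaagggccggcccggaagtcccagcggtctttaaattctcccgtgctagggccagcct
PFKFB4: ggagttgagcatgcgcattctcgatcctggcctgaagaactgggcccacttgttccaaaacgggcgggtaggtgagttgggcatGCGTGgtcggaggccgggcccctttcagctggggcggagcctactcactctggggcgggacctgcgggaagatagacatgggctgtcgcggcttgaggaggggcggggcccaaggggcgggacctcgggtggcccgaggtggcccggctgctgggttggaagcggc

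CoCl2 raised 498 genes (3.44% of the genes measured) and lowered 528 (3.65%) in Sp1-si cells. A count for a gene list below is to be read beside these shares. The large changes were mostly increases. A change of at least 4-fold was seen upwards in 88 genes and downwards in 37, and one of at least 8-fold upwards in 21 and downwards in 1. Within 1.5-fold lay 11388 genes (78.8%), and the median log2 ratio over all genes was -0.00. Counted by probe, 1055 of 30685 probes were raised (3.44%) and 1777 lowered (5.79%). Probes without a gene symbol made up part of that excess of lowered probes, since 8.93% of them were lowered and 2.80% raised, against 4.38% and 3.72% of the probes with a symbol. Where the arrays are scaled by their medians in place of the 75th percentile, all log2 ratios rise by 0.108, and with no scaling by 0.227. Of the genes called, 48.5% were raised on the scale used here, 61.1% with median scaling and 74.5% without scaling, so the balance of raised and lowered genes rests on the scaling. For called probes the share raised was 37.3%, 49.2% and 64.2%.

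At the limit itself, KLF11 (1.00479) and SLC30A1 (1.01) lay just inside it upwards and SERPINE2 (0.999556) just outside, and TRIM2 (-1.00069) lay just inside downwards and ISCA2 (-0.999324) just outside.

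Bright probes were seldom lowered. In 10 bins of signal with 3068 or 3069 probes each, the share lowered was 9.16% in the fourth bin, at a median signal of 131, and 0.880% in the brightest, at a median of 16631. The share raised ran from 4.56% to 1.63%. Where a gene had several measured probes, they did not always move together. Of 175 such genes whose brightest probe was raised, every probe was raised in 103 (58.9%), and of 214 whose brightest probe was lowered, every probe was lowered in 57 (26.6%).

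**Figure D1:**
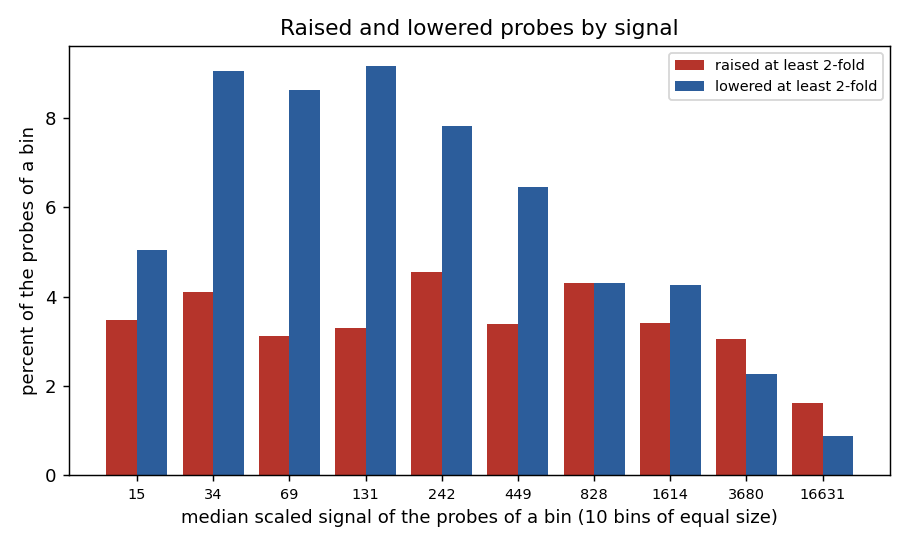
Percent of probes raised (red) and lowered (blue) at least 2-fold in Sp1-si cells, in 10 bins of probes ordered by signal and labelled with the median scaled signal of each. Lowered probes are most frequent between medians of 34.0 and 242 and fall to 0.880% in the brightest bin.

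Most metallothioneins, small cysteine-rich proteins that bind zinc and other heavy metals, were raised in Sp1-si cells. Of 22 measured metallothionein and zinc transport genes, 9 were raised and 2 lowered, with a median log2 ratio of 0.46. MT2A went from 6374 to 73100.2, a 11.5-fold increase that its 3 probes gave within 3.52 to 3.54 on the log2 scale. MT1X went from 1663 to 19311 (11.6-fold), MT1E from 363 to 3962 (10.9-fold) and MT1G from 1138 to 10373 (9.12-fold). MT1H, MT1L, MT1B and MT1F were raised as well, with log2 ratios of 3.52, 3.32, 2.88 and 1.80. These genes are near-identical copies whose probes may read each other's transcripts, so the MT1 values are not independent of one another. MT1A, at 19782 and 30245, MT3, at 13154 and 16206, and the dim MT1M were not raised. The zinc exporter SLC30A1 went from 5685 to 11422 (log2 ratio 1.01), just inside the limit.

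In the same cells, the zinc sensor MTF1, which binds MREs and drives metallothionein genes, was lower with CoCl2. Its brighter probe read 6738 without and 2129 with CoCl2 (log2 ratio -1.66), but the other measured MTF1 probe gave -0.06, so the probes disagree and their mean did not reach the limit. The zinc importer SLC39A10 fell from 879 to 339, a 2.59-fold decrease. In NS-si cells the metallothionein ratios were smaller, at 2.19 for MT2A, 1.78 for MT1X and 1.83 for MT1E, and MTF1 was at 0.10. The signals before CoCl2 were alike in both kinds of cells, for MT2A 6374 in Sp1-si and 4913 in NS-si. With CoCl2 they were 73100.2 and 22368. Whether the CoCl2 ratios of the 2 kinds of cells differ was not tested, here or below, because each rests on 1 array a side.

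Heme oxygenase HMOX1, which degrades heme, rose 6.71-fold in Sp1-si cells, from 25988 to 174304 (log2 ratio 2.75). In NS-si cells HMOX1 started lower and ended higher, at 16246 and 216110 (log2 ratio 3.73). Of 19 heme and iron genes, 3 were raised and 1 lowered, with a median of 0.15. The porphyrin transporter ABCB6 went from 709.7 to 2189 (3.09-fold). The iron exporter SLC40A1 was near the background, at 10.1 and 24.5, and its ratio fell to 0.16 after a normexp background correction. The heme transporter SLC48A1 went from 4029 to 2006, a log2 ratio of -1.01 at the limit, which was -0.78 without scaling and -0.96 after normexp. The ferritin chains FTH1 and FTL, which store iron, stayed at log2 ratios of 0.10 and 0.25, and the transferrin receptor TFRC at 0.38.

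Chaperone genes gave the largest single change on the arrays. HSPA6, a stress-inducible HSP70 that is nearly silent in unstressed cells, went from 37.8 to 5640.0, a 149-fold increase (log2 ratio 7.22). In NS-si cells it went from 30.6 to 649 (4.41), so both kinds of cells started from a like signal and the Sp1-si cells ended higher. Of 24 measured heat shock genes, 7 were raised and 0 lowered, with a median of 0.72, and in NS-si cells 9 were raised with a median of 0.56. The HSP40 co-chaperone DNAJB1 went from 2679 to 12416 (4.63-fold) and its relative DNAJB4 from 141 to 715 (5.06-fold). The nucleotide exchange factor BAG3 rose 4.24-fold, from 1119 to 4743. HSPA1A, the major inducible HSP70, rose 4.84-fold, from 1091 to 5277, though its 3 probes spread from 1.25 to 2.55 and a near-identical copy exists. After a normexp background correction, which mainly shrinks the ratios of dim genes, HSPA6 was at 5.77. ZFAND2A, an arsenite-inducible gene of the proteasome pathway, was raised 7.58-fold, from 314 to 2385. The constitutive chaperones moved little, with HSPA8 at 0.06, HSPD1 at 0.22 and HSP90AA1 at 0.75, and HSF1 itself at -0.01. None of 37 proteasome subunits was raised or lowered, with a range of -0.31 to 0.52.

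Of 22 measured genes of NRF2, glutathione and thioredoxin, 6 were raised and none lowered, with a median of 0.54. GCLC, the catalytic subunit that starts glutathione synthesis, went from 601 to 7319 (12.2-fold), and its partner GCLM from 866 to 5624 (6.49-fold). Thioredoxin reductase TXNRD1 went from 226 to 2370.2 (log2 ratio 3.39). These genes set out from higher signals in NS-si cells, where GCLC read 3446 without and 22179.6 with CoCl2 and TXNRD1 1079 and 4815. The Sp1-si cells thus ended below the NS-si cells although their fold change was larger. NQO1, a quinone reductase, went from 142 to 435 in Sp1-si cells and from 1967 to 2561 in NS-si cells. Sulfiredoxin SRXN1 was raised (1.59), as was the dim reductase AKR1B10 (1.84, or 0.75 after normexp), while NFE2L2, the NRF2 transcript, stayed at -0.13 and its inhibitor KEAP1 at 0.45.

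Genes of the hypoxia response are taken by role, from oxygen sensing to secreted signals. In the oxygen sensing group 4 of 14 genes were raised and none lowered (median 0.46). ANKRD37, a small ankyrin repeat protein, went from 439 to 5435 (12.4-fold). The prolyl hydroxylases that act on HIFs were among them, EGLN3 going from 347 to 2265 (6.53-fold) and EGLN1 from 8085 to 18365 (2.27-fold). The ubiquitin ligase SIAH2 rose 2.95-fold. The HIF subunits themselves stayed near their level, HIF1A at -0.17, EPAS1 at 0.26 and ARNT at 0.47.

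Glucose uptake and glycolysis had 10 of 22 genes raised, with none lowered and a median of 0.92. PFKFB4, which makes the activator of phosphofructokinase, went from 309.9 to 5881 (19.0-fold), and in NS-si cells from 519 to 7073. PDK1, the kinase that turns pyruvate away from mitochondria, went from 748 to 5552 (7.43-fold). Hexokinases HK2 and HK1 rose 5.73-fold and 3.19-fold, although a dimmer HK2 probe gave a log2 ratio of 0.87. Phosphoglycerate kinase PGK1 rose from 16901 to 45845 and lactate dehydrogenase LDHA from 18856 to 49404. Other members were not raised in Sp1-si cells. The glucose transporter SLC2A1 was at 0.32 in Sp1-si and 1.24 in NS-si cells, ALDOA at -0.30 and 0.67, and PFKL at -0.52 and 0.68. PDP1, a phosphatase that reverses the action of pyruvate dehydrogenase kinases, was lowered 6.57-fold, from 2007 to 305, and had -0.67 as its log2 ratio in NS-si cells.

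Secreted HIF targets had the highest list median, 1.55, with 8 of 13 raised and 1 lowered. The vasodilator peptide adrenomedullin (ADM) was among the brightest raised genes, at 15122 without and 181089 with CoCl2 (log2 ratio 3.58, SD between spots 0.080). IGFBP3, a carrier of insulin-like growth factors, went from 1754 to 15738 (8.97-fold), against 19284 and 40277 in NS-si cells. For IGFBP3 the Sp1-si cells thus had the lower signal before and after CoCl2 and the larger ratio. Stanniocalcin STC2 rose 9.22-fold and VEGFA 7.26-fold, the 4 VEGFA probes spanning 1.64 to 2.86. The vasoconstrictor endothelin (EDN1) went the other way, from 354 to 77.2, a 4.59-fold decrease, and was at -0.96 in NS-si cells.

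In the list of pH control and membrane HIF targets, which also holds some genes of other compartments, 5 of 10 genes were raised and 1 lowered (median 0.90). RIMKLA, an enzyme that joins aspartate and glutamate residues and was placed in this list, went from 86.8 to 1906 (22.0-fold) with both probes near the same value. The oxidase ERO1A, which forms disulfide bonds in the endoplasmic reticulum, went from 11354 to 33459. The stress gene NDRG1 rose 5.46-fold to 78088, and the chemokine receptor CXCR4 2.92-fold to 69176. Carbonic anhydrase CA12, a membrane enzyme of pH control that HIF can induce in other cells, was lowered 4.91-fold, from 630.3 to 128, by both of its probes, and in NS-si cells its ratio was -1.72. CA9 was not well above background on either array.

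JmjC histone demethylases belong to the same dioxygenase family as the HIF hydroxylases. Of them 5 of 18 were raised and 1 lowered (median 0.39). KDM3A, which removes methyl groups from lysine 9 of histone H3, went from 999.7 to 5989 (5.99-fold, 3 probes). JMJD6 rose 3.04-fold, KDM2A from 652 to 1554 and KDM7A from 456 to 968, and KDM4C 2.70-fold on its brighter probe only. KDM4A was lowered 2.92-fold, from 970.1 to 332, and was at -0.21 in NS-si cells. Of the collagen hydroxylases, also dioxygenases, and the lysyl oxidases, which are copper enzymes, 3 of 10 were raised, P4HA1 2.77-fold, P4HA2 2.61-fold and LOXL2 2.52-fold.

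Mitophagy and growth-arrest genes had 4 of 19 members raised and none lowered (median 0.52). The mitophagy receptor BNIP3 went from 5373 to 24951 and its relative BNIP3L from 1295 to 4696. The mTOR inhibitor DDIT4 rose 2.57-fold to 53968, and the MYC antagonist MXI1 3.02-fold. Clock genes had 4 of 16 raised, with the period gene PER1 going from 361 to 1968 and the repressor BHLHE40 from 755 to 3139. NFIL3, a repressor of clock output, went from 2816 to 7453, while the nuclear receptor RORA was near the background, at 8.45 and 35.0, with a ratio of 0.42 after normexp. HILPDA, an inhibitor of fat breakdown on lipid droplets, went from 6255 to 44992 (7.19-fold), the only raised gene of 13 measured lipid droplet genes. INSIG2, which holds back cholesterol synthesis, rose 4.64-fold on both probes, while 27 of 29 cholesterol and fatty acid genes stayed within 2-fold.

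**Figure D2:**
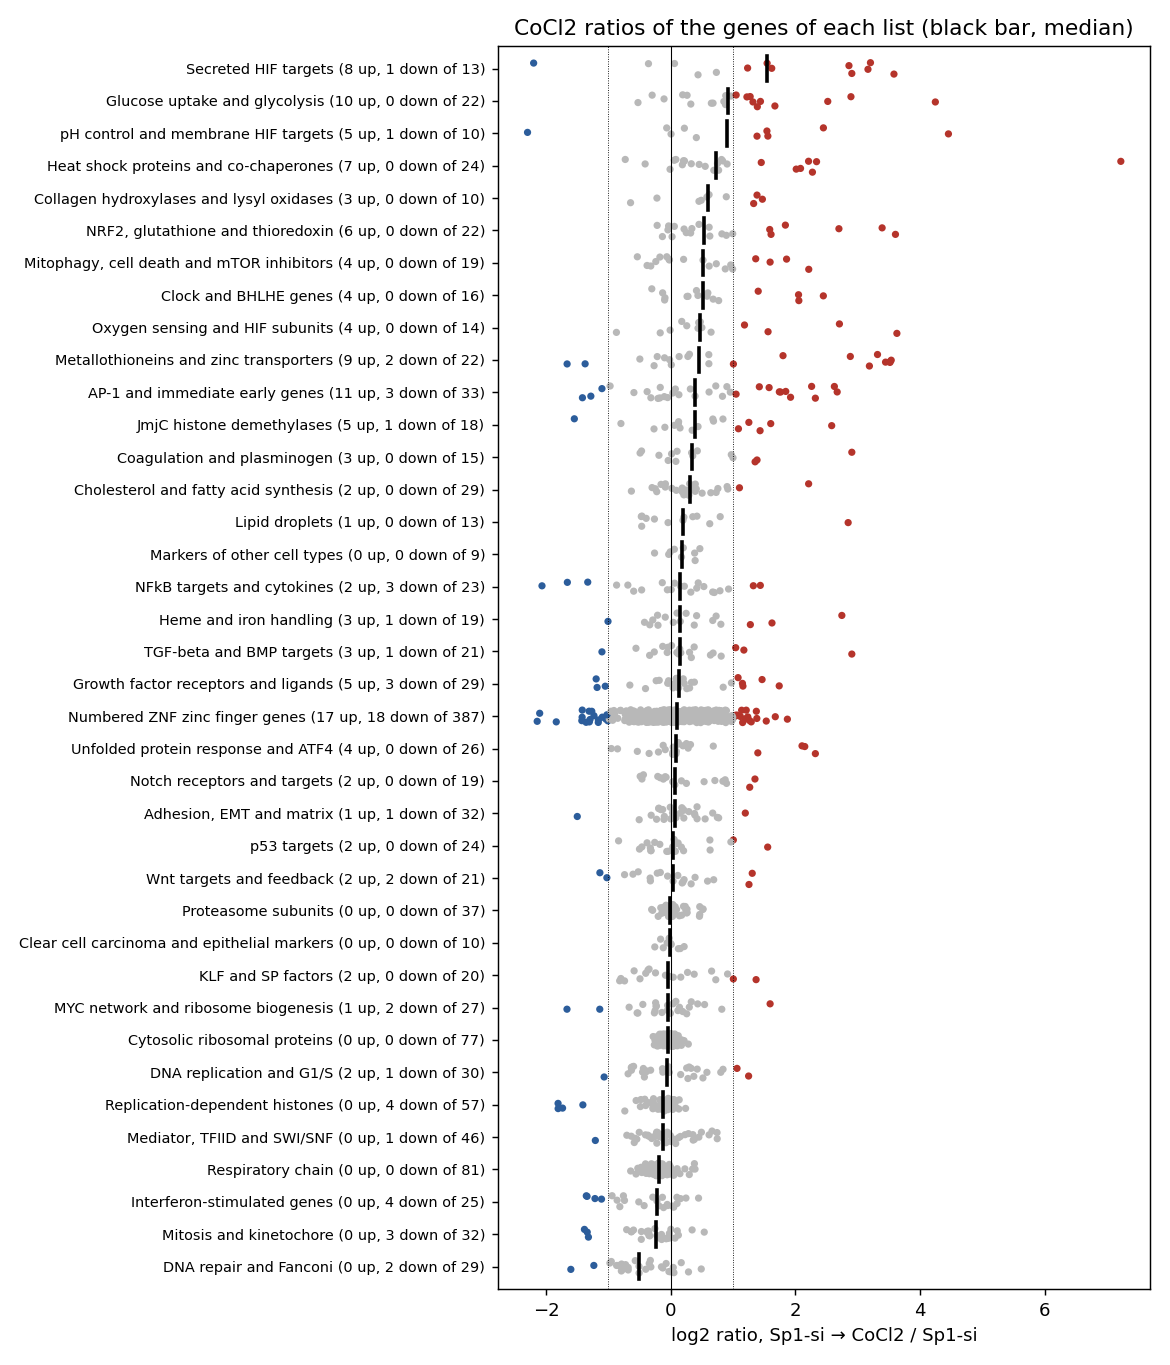
Log2 ratio of Sp1-si → CoCl2 to Sp1-si for each measured gene of 38 lists, 1 point a gene, raised in red and lowered in blue, with the list median as a black bar, the 2-fold limits dotted and lists ordered by median. Medians run from 1.55 for secreted HIF targets to -0.51 for DNA repair genes.

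Immediate early genes split into raised and lowered members. Of 33 measured, 11 were raised and 3 lowered, with a median of 0.39, against 13 and 1 with a median of 0.82 in NS-si cells. FOS, a subunit of AP-1, went from 272 to 1680.4 (6.17-fold), and JUNB, another subunit, from 4977 to 16894. JUN, their usual partner, read 5699 and 4949 (log2 ratio -0.20, or 0.02 without scaling), whereas in NS-si cells it went from 4499 to 19236 (2.10). Brakes on the same pathway were raised, the ERK phosphatase DUSP5 6.37-fold, DUSP1 3.79-fold and the RNA-decay factor ZFP36 4.79-fold. The matricellular gene CCN1 was lowered from 55545 to 20815 by all 3 probes. EGR1 was lowered from 3308 to 1361, and in NS-si cells it was at -0.85. CCN2, a relative of CCN1, was at -1.10 in Sp1-si and 0.89 in NS-si cells, opposite signs for which the difference was not tested, and without scaling its Sp1-si ratio was -0.88.

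In the list of the unfolded protein response and ATF4, which act on stress of the endoplasmic reticulum, 4 of 26 genes were raised and none lowered, with a median of 0.09. ATF3 went from 2998 to 14983, and the phosphatase subunit PPP1R15A from 267 to 1187. The pseudokinase TRIB3 and the factor CEBPB were raised 2.64-fold and 4.31-fold, although a dimmer CEBPB probe gave a log2 ratio of 0.63. Others of the list were not raised, with the chaperone HSPA5 at 0.07, XBP1 at 0.05, DDIT3 at 0.25 and the amino acid enzyme ASNS at 0.04. EIF2AK3, a kinase that senses this stress and was in no list, was raised, with log2 ratios of 1.19 in Sp1-si and 1.53 in NS-si cells. Of 24 p53 targets, 2 were raised, GADD45B 2.94-fold and GADD45A 2.01-fold, and CDKN1A was at -0.17.

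Some inflammatory signals were lowered, although most of their list was not. Of 23 NFkB targets and cytokines, 3 were lowered and 2 raised, and 14 had a ratio above 0 (median 0.16). In NS-si cells 2 were lowered and 6 raised (median 0.27). The neutrophil chemokine CXCL2 went from 640.3 to 153 (4.18-fold lower, both probes) and CXCL1 from 950.2 to 378. The cytokine IL6 went from 2044 to 647, a 3.16-fold decrease. The same genes had ratios of -1.62, -0.99 and -1.15 in NS-si cells, all below 0. PTGS2, which makes prostaglandins, was lowered from 607 to 209.8 by both probes and was at -0.44 in NS-si cells. The NFkB inhibitor TNFAIP3 was raised 2.51-fold, as was the dim chemokine CCL20, at 32.6 and 88.3, whose log2 ratio fell from 1.44 to 0.57 after normexp. ICAM1 was not well above background on any of the 4 arrays. Interferon-stimulated genes had 4 of 25 lowered and none raised (median -0.22, or 0.01 without scaling), with IFIT1 going from 718 to 281 and the tryptophan enzyme IDO1 from 570.4 to 246 (log2 ratio -1.22, or -0.99 without scaling).

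DNA repair genes had the lowest list median, -0.51. Of 29 measured, 2 were lowered, none was raised and 5 had a ratio above 0, and in NS-si cells the median was -0.44. FANCL, a ubiquitin ligase of crosslink repair, went from 4937 to 1627 (3.04-fold lower), and FANCF from 1095 to 466. Just short of the limit lay XRCC2 (-0.98) and RAD51C (-0.95), whereas BRCA1 was at -0.00. Mitosis genes had 3 of 32 lowered and none raised (median -0.24). The kinetochore genes NDC80 and NUF2 went from 413 to 158 and from 254 to 102 (log2 ratio -1.32, or -0.99 after normexp), and the mitotic kinase CDK1 from 584 to 231. The other 29 stayed within 2-fold, with CCNB1 at -0.13 and PLK1 at -0.02, which were at -0.78 and -0.69 in NS-si cells.

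The replication and G1/S list had 2 raised (6.67%) and 1 lowered (3.33%) of 30, with a median of -0.06. Over all genes 3.44% were raised and 3.65% lowered. The origin recognition gene ORC1 went from 34.6 to 82.4, the cyclin CCND3 from 875 to 1829 and the replication helicase subunit GINS1 from 50.4 to 24.0. After normexp none of the 3 passed the limit, with log2 ratios of 0.53, 0.97 and -0.54. TICRR, a gene needed to start replication that was in no list, was by contrast one of the most raised genes, from 591 to 8871 (log2 ratio 3.91, with both probes raised). In NS-si cells it went from 917 to 4096. Of 57 replication-dependent histone genes, 4 were lowered, all of them copies of H4. H4C3 went from 7366 to 2105 (3.50-fold lower), and the other lowered copies, H4C2, H4C13 and H4C4, had ratios between -1.81 and -1.41. Such near-identical copies can bind the same probe and are not independent, and in NS-si cells the ratios of the 4 lay between -0.48 and -0.41. Of 27 genes of the MYC network and ribosome biogenesis, 1 was raised (3.70%), MXI1, and 2 were lowered (7.41%), with a median of -0.05. The lowered ones were the ribosome biogenesis genes UTP20, from 1275 to 402, and RRS1, from 5151 to 2341, whose ratio was -0.91 without scaling.

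The gene with the largest decrease was WDR5B, a WD-repeat gene related to a subunit of histone methyltransferases, which went from 87.8 to 9.64 (9.11-fold lower). Its signal was near the background with CoCl2, and a normexp correction reduced its log2 ratio from -3.19 to -1.39. The ephrin receptor EPHA4 went from 3138 to 416 (7.55-fold lower), with its 3 probes between -2.92 and -1.10. The protocadherin PCDH17 went from 437 to 65.4 and the matrix protease ADAMTS5 from 378 to 65.5. In Sp1-si cells these 3 had log2 ratios of -2.92, -2.74 and -2.53. All were lowered in NS-si cells too, with ratios of -1.59, -1.87 and -1.84. CDH6, a kidney-type cadherin, was lowered from 644 to 227 by both probes, and the RANKL decoy receptor TNFRSF11B from 19052 to 6946. The integrin ITGA2 went from 22308 to 7889.8 on its brightest probe but had a log2 ratio of 0.25 on another, so its decrease rests on the choice of probe.

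The rest of the 25 most lowered genes were a mixed group, and most had a ratio below 0 in NS-si cells too. The secreted BMP and Wnt antagonist SOSTDC1 went from 398 to 88.6, and RAB11FIP2, an adaptor of recycling endosomes, from 1206 to 249. SLX4IP, which binds a DNA repair nuclease complex, went from 519 to 108. In NS-si cells these 3 had log2 ratios of -1.83, -0.94 and -0.75, all nearer to 0 than the Sp1-si ratios of -2.17, -2.28 and -2.26. The noncoding or pseudogene transcripts PRORSD1P, FUT8-AS1 and GABPB1-AS1 had ratios of -2.56, -2.53 and -2.32 in Sp1-si and -2.73, -3.68 and -1.19 in NS-si cells. A second, dimmer FUT8-AS1 probe gave -0.92 and -0.69, short of the limit in both. The zinc finger gene ZKSCAN7 (-2.39 and -3.19) and EID2B, a relative of EID1 (-2.17 and -3.04), had the larger decrease in NS-si cells. The dim genes PRDM12, ZNF546 and CCDC171 read at most 70.5 without CoCl2, and after normexp their ratios of -2.11, -2.14 and -2.20 were -0.81, -0.79 and -0.95. Genes lowered by both of their probes included LEPROT, a regulator of receptor trafficking, from 5399 to 1866, ARV1, which acts in sterol transport, from 2031 to 724, and the kinase DYRK3 from 156 to 54.2. LEPROT was at -0.22 in NS-si cells, ARV1 at -1.25 and DYRK3 at -2.27. SPIN2B and SPIN3, near-identical relatives whose probes may bind both transcripts, were at -1.35 and -1.36.

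On the raised side, further genes of the 25 highest had roles outside the lists. TMEM45A, a membrane protein, went from 258 to 1928 (log2 ratio 2.90) and TCAF2, which acts on an ion channel, from 40.8 to 395, with its probes between 1.90 and 3.28. Below the 25 highest, the orphan receptor GPRC5A went from 1266 to 5634, raised by both probes. In NS-si cells these 3 were raised as well, at 2.24, 2.92 and 1.52. C11orf96, at 7.08 and 56.5, was near the background, and its log2 ratio was 0.88 after normexp.

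Transcription factors moved in both directions. Among those lowered, the homeobox gene HOXB2 went from 139 to 26.4 (log2 ratio -2.39, or -1.28 after normexp), FOXJ1, which drives the genes of motile cilia, from 755 to 145, and MECOM from 4436 to 1028. For MECOM all 4 probes were lowered, whereas a second FOXJ1 probe gave -0.59. CDCA7, a chromatin protein, went from 3301 to 931 by both probes and EID1, an inhibitor of differentiation, from 6166 to 2493. The numbered zinc finger genes, most of them repressors, had 17 of 387 raised and 18 lowered (median 0.09), shares close to those of all genes. Changes among them included 1.87 for ZNF395, -2.14 for ZNF546 and -1.84 for ZNF658, of which one probe gave -0.55. ZNF644 went from 3729 to 869 on its brightest probe, with another of its 4 probes at -0.03. ZNF395 went from 2027 to 7422 on its brightest probe, with its 4 probes between 0.23 and 2.38. In the other direction, HOXA13, a homeobox gene of the posterior body, was the second most raised gene, from a signal of 6.85 near the background to 170.5 (log2 ratio 4.64, or 1.93 after normexp). In NS-si cells it was not well above background without CoCl2 and read 173 with it. The factor OVOL1 went from 608 to 5795 (9.53-fold). Of 20 KLF and SP factors, relatives of Sp1, 2 were raised, KLF4 2.59-fold and KLF11, at the limit, from 505 to 1013, and KLF6 was at 0.38 on its brightest probe, with its 4 probes between -0.36 and 1.16.

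Growth factor ligands and receptors moved both ways, with 5 of 29 raised and 3 lowered (median 0.13). Among ligands of the EGF receptor family, HBEGF went from 80.4 to 269, EREG from 2702 to 1192 and BTC from 493 to 238. HBEGF was thus raised on its brightest probe, with the other at 0.66, while EREG and BTC were lowered, and AREG, the brightest of them, was at -0.40. TGFA, another ligand of that receptor, which was listed with the secreted HIF targets, was raised (1.23, and 1.13 in NS-si cells). In NS-si cells HBEGF was at 1.78, EREG at 0.05 and BTC at -0.06. The receptor EGFR went from 385 to 815 (log2 ratio 1.08, or 0.97 after normexp), and the insulin signalling adaptor IRS2 2.76-fold on its brightest probe. FGF18 was lowered from 31714 to 13843. Without scaling, EREG, BTC and FGF18 lay within 2-fold, at -0.95, -0.82 and -0.97.

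The Notch list had 2 of 19 raised, the receptor NOTCH1 2.55-fold and the dim ligand DLL1 at 1.27 (0.25 after normexp), and none lowered (median 0.07). In the TGF-beta and BMP list 3 of 21 were raised and 1 lowered (median 0.14), with the inhibitors SKIL and SMAD7 at 1.17 and 1.04, or 0.81 and 0.87 after normexp. Wnt targets had 2 raised and 2 lowered of 21 (median 0.04). The secreted Wnt inhibitor DKK1 went from 81579.5 to 37126 in Sp1-si and from 34765 to 6854 in NS-si cells, with log2 ratios of -1.14 and -2.34. Without scaling the Sp1-si ratio was -0.91. The coagulation list had 3 of 15 raised, among them the urokinase receptor PLAUR (1.39) and the protease receptor F2RL1 (1.35), with none lowered (median 0.34). Adhesion and matrix genes had 1 raised and 1 lowered of 32 (median 0.06), 3.1% each and near the shares of all genes. The raised one was the EMT factor SNAI1 (1.20).

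Genes of the basic cell machinery and of cell identity hardly moved. None of 77 cytosolic ribosomal protein genes (-0.28 to 0.28) and none of 81 respiratory chain genes (-0.64 to 0.39) was called. Of 46 subunits of Mediator, TFIID and SWI/SNF, which Sp1 and other activators use, 1 was lowered, MED1 (-1.21, or -0.98 without scaling), which stood at 0.15 in NS-si cells. All 10 CCC and epithelial markers were measured and stayed between -0.26 and 0.22, among them the aspartic protease NAPSA at 894 and 749. Of 21 markers of fibroblasts, blood, vessel and immune cells, 20 had a probe. Of these, 11 were not well above background on either array, PTPRC, PECAM1 and COL3A1 among them. The other 9 were measured on both arrays and stayed between -0.26 and 0.47. Among those 9 were the leukocyte marker CD68, at 226 and 312, and the endothelial marker VWF, at 47.4 and 39.6.

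**Figure D3:**
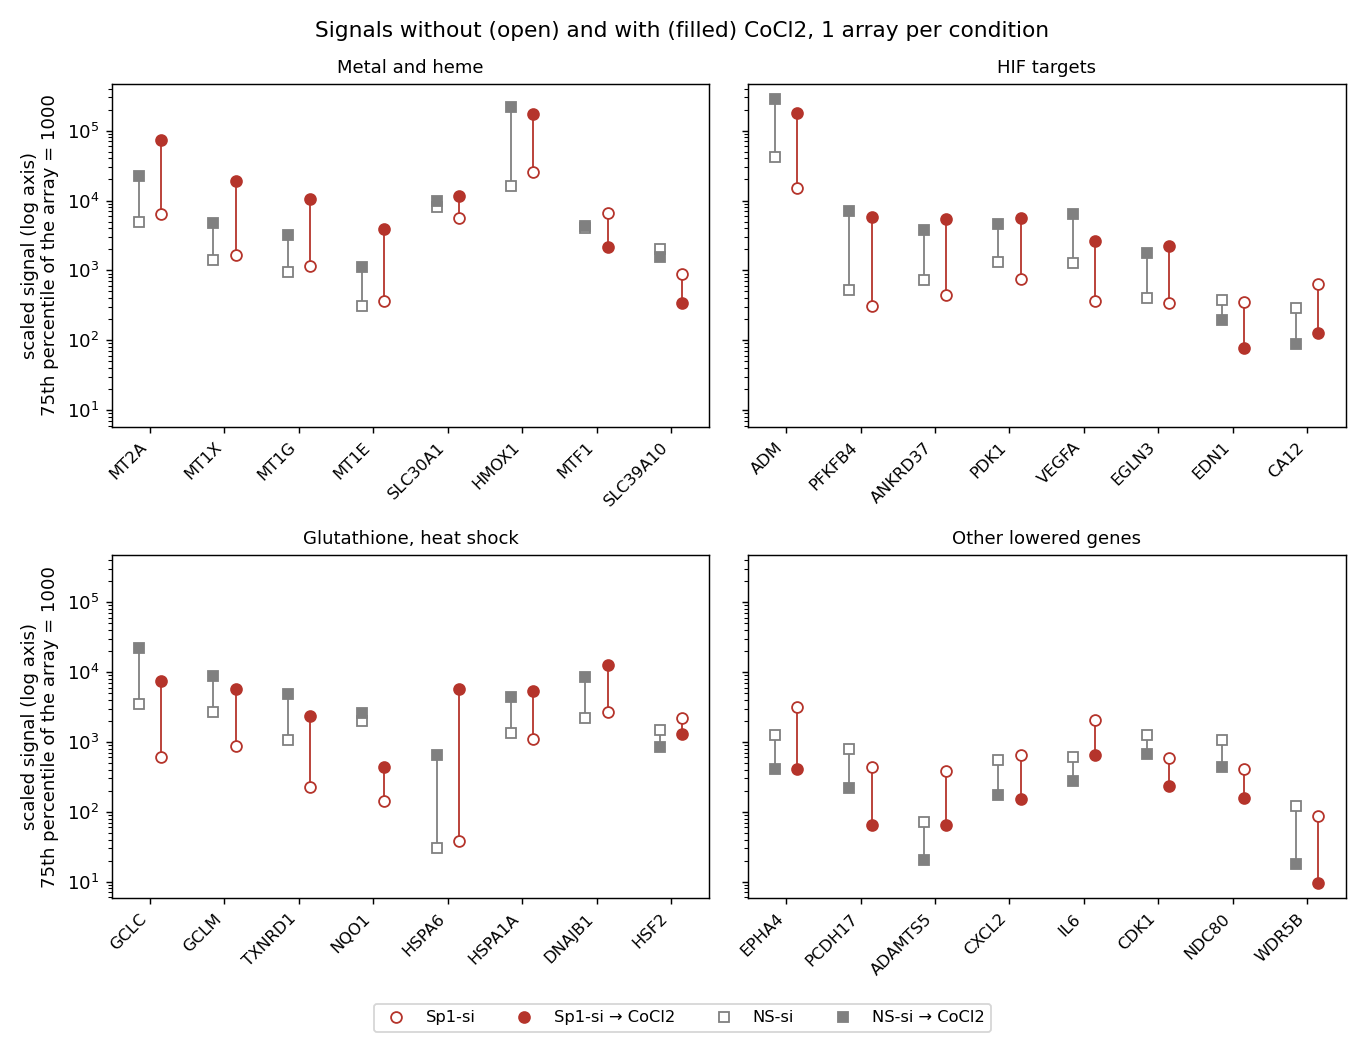
Scaled signal (log axis) of 32 genes without CoCl2 (open) and with CoCl2 (filled) in Sp1-si cells (red circles) and NS-si cells (grey squares), 1 array per condition and no error bars. MT2A, MT1X, MT1G and MT1E start from like signals and end higher in Sp1-si cells, whereas GCLC, GCLM, TXNRD1 and NQO1 start and end lower there.

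Genes seen on only 1 of the arrays have a bound in place of a ratio, computed against the lowest signal well above background on the dim array or the gene's own signal there, whichever was higher. There were 121 such genes with CoCl2 only, of which 56 had a bound of at least 2-fold, and 520 without CoCl2 only, of which 69 had one. The Sp1-si → CoCl2 array had 33081 spots well above background, against 34542 on the Sp1-si array. Its lowest such signal was higher, at 7.94 against 6.11. An effect of CoCl2 on the counts of 121 and 520 cannot be told apart from this difference in sensitivity. FGFBP2, a secreted carrier protein, read 74.8 with CoCl2 and was not well above background without it, at least 12.2-fold higher, and the secreted peptide PROK2 read 74.3, also at least 12.2-fold higher. The collagenase MMP13 was at least 6.30-fold higher and the inflammatory calcium-binding protein S100A8 at least 5.05-fold higher. Seen without CoCl2 only were the GTPase-activating protein ARHGAP20, at 92.2 and at least 11.6-fold lower with CoCl2, and SPANXN3, at least 9.61-fold lower. In NS-si cells neither was well above background with or without CoCl2. All 20 genes with the largest bounds lay below a signal of 100 on the array that saw them. Of the 10 seen with CoCl2 only, 5 were not well above background in NS-si cells with or without CoCl2. The same held for most of the 10 seen without CoCl2 only.

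Set beside the NS-si cells, the genes raised and lowered by CoCl2 were shared in part. On all 4 arrays 14281 genes were measured. CoCl2 raised 481 of them in Sp1-si and 534 in NS-si cells (3.74%), with 305 raised in both, 63.4% of the former and 57.1% of the latter. It lowered 514 and 447 (3.13%), with 199 in both, 38.7% and 44.5%. Of the genes raised in Sp1-si cells, 469 (97.5%) had a ratio above 0 in NS-si cells, and of those lowered 460 (89.5%) had one below 0. The median ratio of the raised genes was 1.37 in Sp1-si and 1.19 in NS-si cells, and that of the lowered genes -1.27 and -0.79. These genes were chosen by their ratio in Sp1-si cells, so the medians are a description of the choice and not a comparison of the responses. Within 1.5-fold in NS-si cells lay 69 of the raised and 197 of the lowered genes. The shares of all 14281 genes with such ratios or signs in NS-si cells were not computed. These counts therefore do not show a response limited to Sp1-si cells, which was not tested. SUSD5, a membrane protein, went from 20.9 to 252 in Sp1-si (log2 ratio 3.59, or 1.77 after normexp) and from 12.7 to 20.7 in NS-si cells (0.71).

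Promoter windows of 300 bases, 250 before and 50 after an annotated start, were found for 11522 of the 14457 genes, 16576 windows in all. The HRE core was present in 59.6% of 579 windows of raised genes, 56.5% of 572 windows of lowered genes and 58.1% of all windows. These 3 shares lay close together. A GC box (GGGCGG), the motif Sp1 reads, was present in 69.4% of the windows of raised, 54.4% of lowered and 62.6% of all genes. MRE letters were found in 42.1%, 36.7% and 36.0% of them, and the AP-1 motif (TGACTCA or TGAGTCA) in 6.56%, 3.32% and 3.75%. The antioxidant response element of NRF2 (TGACNNNGC) was in 14.7%, 10.1% and 14.2%, the cAMP response element (TGACGTCA) in 2.94%, 2.10% and 2.60% and the ATF4 element (TGATGNAA) in 2.42%, 1.40% and 2.14%. Heat shock elements were in 5.01%, 4.90% and 4.97%. Both strands were searched, and motifs may overlap each other, as MRE, HRE and GC box letters can in GC-rich promoters. Metallothionein and chaperone windows held more of their own motif, but also of some others. All 4 windows of raised metallothionein genes held MREs, with a median of 6 matches a window against 0 over all windows. They also exceeded all windows for the HRE core (75%), GC box (100%), NRF2 element (75%) and AP-1 motif (50%), with the other motifs at 0%. Of 10 windows of raised heat shock genes, 5 held a heat shock element. They also exceeded all windows for the GC box (80%) and AP-1 motif (20%), and lay below them for the other motifs. A match describes letters in a window and not binding.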

How the data were processed

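RNA from the 4 cultures was labelled with Cy3 and hybridised to Agilent whole human genome arrays on 1 slide, and the authors deposited the output of Feature Extraction 10.5.1.1, from which the processed signal was used, an intensity per spot after background subtraction. The value table that the authors also deposited held the same intensity times a constant per array. Control and outlier spots were dropped. Intensities were log2 transformed, reduced by the 75th percentile of the array and averaged per probe. A probe was taken as measured if 50% or more of the spots kept for it were well above background on both arrays. Symbols were assigned through RefSeq accessions to 26222 of 41000 probes, and of several probes for a gene the brightest on average stood for it. The 75th percentile signals were 1099.7 in Sp1-si and 1287 in Sp1-si → CoCl2 cells. Having 1 array a side limits the precision. Python 3.11.15 with numpy 2.4.6, pandas 2.3.3 and matplotlib 3.10.9, and R 4.3.3 with limma 3.58.1, were used. The calculation was tested on simulated data, with changes planted well past the limit in probes that were not dim. Recovery of changes in dim probes or near the limit was not covered.

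The genes, the 38 lists and the rules were chosen with earlier results of these data known. Genes were named as the 25 highest and 25 lowest, the 15 each way among genes with several probes that all moved, up to 5 each way per list past the limit, the 10 largest bounds each way, and the study's genes SP1, VEGFA, HMOX1, JUN, KLF6 and ICAM1. Some genes that these rules name are not reported here. List members within the limit, genes at the limit, single probes, EIF2AK3 and TGFA were chosen after their values were seen. Alternatives changed the scaling, the filter, the limit, the summary of probes and the background correction. A normexp correction of the mean signals was planned, but the files used here hold median signals, which took their place.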

Additional observations from a re-analysis of the deposited data

Results flagged for a closer look

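The 3 genes FRMD4A, LRRC2 and REXO1 passed the 2-fold limit in opposite directions in the Sp1-si and NS-si cells. They were picked for that, and each direction rests on 1 array pair. The difference was not tested, since each kind of cell has 1 array a side. The scaffold gene FRMD4A went from 1967 to 879 in Sp1-si cells, and the log2 ratios of -1.16 there and 1.04 in NS-si cells differ by -2.20. LRRC2 went from 95.5 to 40.7, and its ratios of -1.23 and 1.12 differ by -2.35. The exonuclease-family gene REXO1 went from 14.8 to 49.3, and its ratios of 1.73 and -1.58 differ by 3.32. REXO1 was dim, as the lowest signals well above background were 6.11 in Sp1-si and 7.94 in Sp1-si → CoCl2 cells.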

How the results depend on the processing

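The counts of changed probes and genes rested on the scaling, the background correction and the limit. Without scaling 1873 probes were raised and 1044 lowered, and 881 genes were raised and 301 lowered. With normexp on the median signals, chosen after seeing the data, the counts were 579 and 839 probes and 321 and 317 genes. Without the background filter they were 1677 and 3032 probes, with 867 genes lowered. A 1.5-fold limit gave 3154 and 4430 probes and 1486 and 1583 genes, and a 4-fold limit 171 and 118 probes and 88 and 37 genes. Under the remaining alternatives the counts stayed within 1.5 times the values reported, as did the numbers of genes raised in both kinds of cells and lowered in both under every alternative that gave them. Of 188 named genes 175 passed the limit, and the number that fell under 2-fold was 30 with normexp, 12 without scaling, 9 with probes of a gene averaged, 5 each with median scaling and quantile normalization, 3 with the value table, 2 with the percentile taken over probes well above background and 0 with outlier spots kept. JUN alone among the named genes changed sign, to 0.02 without scaling, and no called gene did. Of 38 list medians, 10 changed sign without scaling, 6 with median scaling, 5 with normexp, 3 with probes averaged, 2 with the value table and 1 with quantile normalization. For dim genes the signal over background limits the ratio. The normexp correction of mean signals was not run, because the files hold median signals. No paired analysis was possible because each condition had 1 array, and leaving out a replicate was not possible for the same reason.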
